A study of Schistosoma mansoni with 6 samples.

Results

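The genes described here are p14 (Smp_131110), p48 (Smp_014610), the Pro His rich protein gene (Smp_000420) and the C-type lectin-like gene (Smp_033250) of Schistosoma mansoni. They are products of vitelline cells that lie outside the family carrying the trematode eggshell domain. These 4 genes, of 10831 in the deposited table, were listed by identifier from the study, which named them among transcripts with far higher levels in tails than in heads. The group means of tails and heads therefore had a part in the choice, and they are given below as a description with no test. Tails were the fragments of adult females cut behind the ovary and heads the fragments cut in front of it, from worms recovered from mice 7 to 8 weeks after infection. Each group has 3 libraries, made from pooled fragments in independent rounds of RNA extraction. No worm was treated or mutated in either group, and a fragment holds every tissue of its part of the body, so the groups differ in tissue content and not in 1 cell type. In such bulk samples, more vitelline cells in a fragment and more RNA of a gene in each vitelline cell cannot be told apart.

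Vitelline cells, or vitellocytes, mature in the follicles of the vitellarium, which fills the posterior body of the female. They carry lipid and droplets of eggshell precursor, pass forward along the vitelline duct and surround the oocyte in the ootype, where the droplets are released and fuse into a shell. The shell is then hardened as tyrosinases oxidise tyrosine residues of the precursor proteins and these cross-link. p14 is one of the classic precursors, a protein rich in glycine and tyrosine. p48 is a further eggshell protein of vitelline cells, although the deposited annotation calls Smp_014610 a serine:threonine kinase 1 and gives Smp_131110 and Smp_033250 only as hypothetical proteins. The Pro His rich protein is named for its amino acid content. C-type lectins of animals are a large family of proteins, many of which bind sugars with the help of calcium.

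The study cloned fragments of the last of these genes and of the Pro His rich protein gene for riboprobes, and described the signal of both as specific to the vitellaria. The primers that define those probes are shown, 5′ to 3′, because they identify which transcripts were seen in the tissue.
Pro His rich protein, forward primer: catcccccagcacataattc
Pro His rich protein, reverse primer: tgtggttcttctggatgtgg
C-type lectin-like gene, forward primer: tgtcgtaaattggccgaaa
C-type lectin-like gene, reverse primer: tcccaatgttgttgaagtcg
The primers are 19 to 20 bases long, with a GC content of 42.1% in the forward primer of the C-type lectin-like gene, 45% in its reverse primer and 50% in both primers of the Pro His rich protein gene. No primers for p14 or p48 were used here.

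All values are normalized counts: reads per gene divided by a size factor of the library, averaged by the authors over the 3 libraries of a group, and every group value below is such an authors' mean. They are not divided by transcript length, so levels of different genes are set side by side here as read numbers only. p48 stood at 232904.9 in tails against 3426 in heads, a log2 fold change of 6.09 or 68.0-fold. p14 stood at 108109.9 in tails against 827 in heads, a log2 fold change of 7.03 or 130.7-fold. Both precursors were thus carried by tails at levels that few other transcripts reached: by read number p48 ranked 2 and p14 ranked 11 among the 9947 genes with reads.

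For the Pro His rich protein gene the values were 62713.6 in tails and 654 in heads, a log2 fold change of 6.58 or 95.9-fold. The C-type lectin-like gene reached 30813 in tails and 269 in heads, a log2 fold change of 6.84 or 114.5-fold. By read number these genes ranked 25 and 50 in tails. In heads the order of the 4 genes was the same, but their places among all genes were 608 for p48, 3430 for p14, 4100 for the Pro His rich protein gene and 6004 for the C-type lectin-like gene. The C-type lectin-like transcript was thus among the 50 with most reads in tails and in the lower part of the list in heads.

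**Figure D1:**
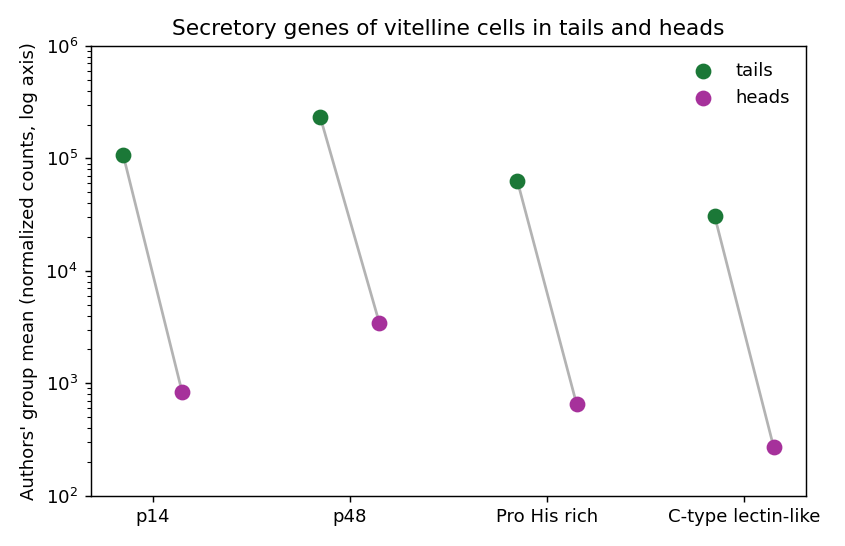
Authors' means of tails (green, left) and of heads (purple, right) for each gene, in normalized counts on a log axis; a grey line joins the means of 1 gene. Tail means lie between 30813 and 232904.9 and head means between 269 and 3426, so every tail mean is above every head mean.

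Together the 4 genes took up 2.64% of everything counted in tails and 0.0424% of everything counted in heads. The head level was 0.765% of the tail level for p14, 0.873% for the C-type lectin-like gene, 1.04% for the Pro His rich protein gene and 1.47% for p48. Levels differed more between the genes than folds did, with a 7.56-fold spread of tail means and a 12.7-fold spread of head means, against a 1.92-fold spread of the folds.

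Depth did not limit these values. Whatever the share of each library, the head means stand for at least 21418 reads of p48, 5170 of p14, 4089 of the Pro His rich protein gene and 1682 of the C-type lectin-like gene, and the tail means for at least 29534 reads of each. With counting error at its largest, the 95% intervals of the log2 fold change were 6.99 to 7.07 for p14, 6.77 to 6.91 for the C-type lectin-like gene, 6.54 to 6.63 for the Pro His rich protein gene and 6.07 to 6.11 for p48. These Poisson intervals, from the normal approximation, do not overlap, but they cover counting error only. Reads without molecular identifiers are not independent molecules, and the spread over tail libraries is not known for any of the 4 genes. Whether their folds differ beyond the replicate spread was not tested.

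Among all 9947 genes with reads, 307 (3.09%) reached a log2 fold change of 3 in favour of tails, and 46 (0.462%) reached 6. The first count was 139 of 8774 genes (1.58%) where the mean over all 6 libraries had to be at least 10, and 109 (1.1%) with a pseudocount of 10. All 4 genes are among the 46, from which nothing follows given how they were chosen, and p48 would leave them at equal group totals (5.66) or with the median of the 7196 genes whose overall mean reached 100 set to 0 (5.95). The median log2 fold change was 6.71 over the 4 genes and 0.05 over all genes.

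The most abundant transcripts of tails included few with folds as large as those of the 4 genes. In tails, 50 genes had a mean at least as high as that of the C-type lectin-like gene. Of these, 11 had a log2 fold change of 6.09 to 7.03, and the other 39 had one of −0.93 to 2.42. That limit is a member's own level, and just below it the hypothetical protein Smp_149610, with 30767 in tails and 607 in heads, had a log2 fold change of 5.66, while Smp_173150, with 26140 in tails and 3940 in heads, had 2.73. The values between 2.42 and 6.09 are thus empty only above this limit. Log2 fold changes above 6 also continued below it, as for the tetraspanin Smp_155310 (28919 in tails, 6.47) and tyrosinase 1 (27111 in tails, 6.82). Within the 11, p14 had the highest fold and p48 the lowest. The other 7 were the eggshell domain genes Smp_191910, tes1 (Smp_000430), tes2 (Smp_000280) and Smp_000410, the superoxide dismutase Smp_095980, and the genes Smp_138570 and Smp_144440, which the study listed as uncharacterized and specific to the vitellaria. The 11 genes held 8.11% of the tail total and 0.113% of the head total, and the 4 genes described here made up 32.6% of that sum in tails.

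**Figure D2:**
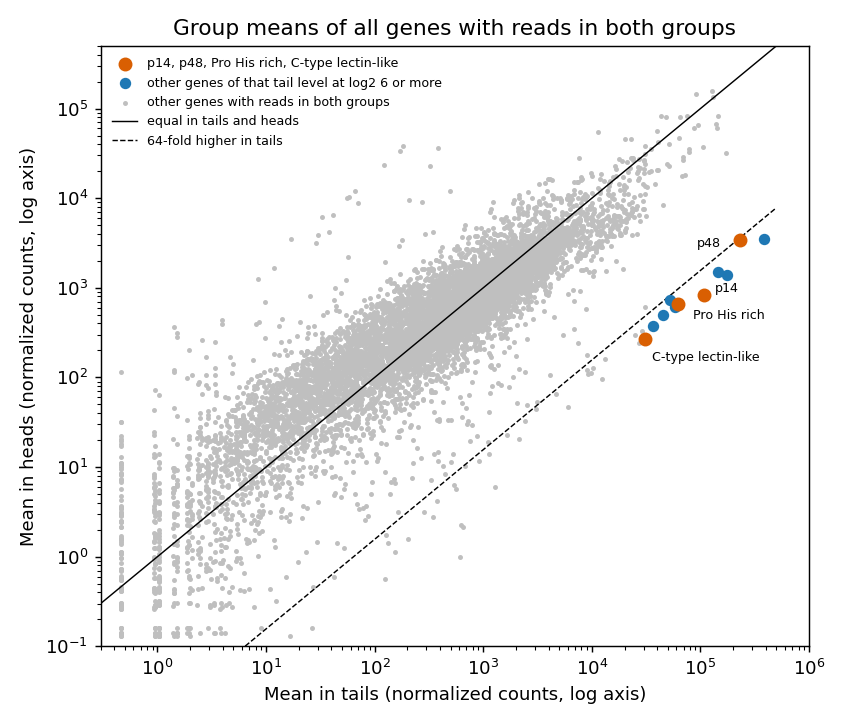
Mean in tails (x axis) against mean in heads (y axis), in normalized counts on log axes, for genes with reads in both groups. The 4 genes (orange) and 7 further genes at least as abundant in tails (blue) lie below the dashed line of a 64-fold difference.

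The eggshell domain genes gave the closest comparison by role. The 9 used here are those that the study placed among its tail-enriched transcripts, so that their fold had a part in the choice; other genes with this domain were not analysed here. These 9 had log2 fold changes from 6.23 to 7.81 with a median of 6.61, and the folds of the C-type lectin-like gene, the Pro His rich protein gene and p14 fell within that range while that of p48 fell below it. The top of the range rests on Smp_000290 alone, whose head mean of 0.556 is near the limit of what was counted. The next highest was Smp_191910 (6.75), below p14 (7.03) and the C-type lectin-like gene (6.84). Their tail means ran from 125 for Smp_000290, annotated as fs800, to 381566 for Smp_191910, a far wider span than that of the 4 genes. As a sum the 9 eggshell domain genes took up 3.91% of tail counts and 0.0514% of head counts, so the 4 genes outside that family added 2.64% to it in tails.

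Enzymes of tanning and redox chemistry and iron-storing ferritins were less uniform, but they were listed by annotation whatever their fold. The 4 genes and the eggshell domain genes came from the study's tail-enriched transcripts, so a high fold was part of their choice. The difference in uniformity can therefore follow from the choice of lists alone, and no conclusion is drawn from it. The 18 genes annotated as tyrosinase, superoxide dismutase, ferritin, glutathione peroxidase or Dyp type peroxidase had a median log2 fold change of 0.81. Of them, 7 had one of at least 3 and 3 had one of −3 or below, against 3.09% and 2.14% of all genes with reads. Those 3 were the superoxide dismutase Smp_174810 (−3.03) and the ferritin-2 genes Smp_047660 (−3.61) and Smp_047680 (−4.46), all lower in tails than in heads. Of the 7, only tyrosinase 1 (6.82), tyrosinase 2 (6.46) and the superoxide dismutase Smp_095980 (6.97) had one of at least 6. Those of ferritin 1 (3.58), which stores iron, the glutathione peroxidase Smp_058690 (3.14) and the Dyp type peroxidase Smp_172830 (5.26) lay below all 4 genes. The last of the 7, the glutathione peroxidase Smp_058700, had a mean of only 3.96 in tails and 0.273 in heads, near the limit of what was counted.

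By group means over tails and heads, the transcript most like each of the 4 was in 3 cases a gene of eggshell formation. Likeness was measured as the distance of log2 tail and log2 head means, over 2 group means and among 9451 other genes with reads in both groups. These means had a part in the choice of the 4 genes, so a near gene has to share their high level and fold. Of the 7 other genes of such tail level and fold, 4 carry the eggshell domain. The likeness is therefore a description and no evidence of a shared role. The nearest gene to the Pro His rich protein gene was tes2, with 58900.7 in tails and 603 in heads at a distance of 0.15. The nearest gene to the C-type lectin-like gene was tyrosinase 1, with 27111 in tails and 239.9 in heads at a distance of 0.25, followed by the tetraspanin Smp_155310 (0.29) and Smp_000390 (0.34). p48 lay nearest to Smp_191910, with 381566 in tails and 3540.4 in heads at a distance of 0.71. p14 had no near neighbour: the closest were the Pro His rich protein gene itself (0.86), tes1 (0.97) and tes2 (0.99).

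Position in the genome, which played no part in the choice, set the Pro His rich protein gene apart from the other 3. In the gene order of the RefSeq annotation of assembly ASM23792v2, in which 10587 of 10711 protein-coding genes matched the table, 7 of its 10 nearest protein-coding neighbours (5 on each side, all with reads) had a log2 fold change of at least 3, against 3.09% of all genes with reads. Where the mean of a gene over the 6 libraries had to reach 10 it was 6 of 9 neighbours, against 1.58% of genes, and with a pseudocount of 10 it was 6 of 10, against 1.1%. The protein-coding gene next to it on one side was tes1, with a log2 fold change of 6.60. On the other side came Smp_122280 (5.28), Smp_191910 (6.75), Smp_000410 (6.63), Smp_000400 (7.02) and Smp_000390 (6.40), in that order and with no protein-coding gene between them. The remaining neighbour past the threshold, Smp_122320, had a mean of 6.24 in tails and 0.665 in heads.

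The Pro His rich protein gene thus sat inside a run of 7 adjacent protein-coding genes, 3 of them with the eggshell domain, that held 4.01% of the tail total and 0.0527% of the head total. Levels inside the run were uneven, with a tail mean of 381566 for Smp_191910, 145934 for tes1, 36834 for Smp_000410, 24867 for Smp_000390 and 6012 for Smp_000400. The lowest was Smp_122280, a hypothetical protein next to the Pro His rich protein gene in the order of protein-coding genes. Its reads could be solved for every library, and naming each library after its size factor, it had 713, 698 and 858 normalized counts in the 0.72, 0.35 and 0.32 tail libraries, against 15.7, 21.7 and 21.1 in the 2.55, 2.35 and 2.08 head libraries. This gene was named for its fold, so it adds nothing that its tail and head libraries did not overlap. The share of all genes without overlap was not counted. The run ended at Smp_000440 (1.28) on one side and at Smp_000380, listed at 0 in both groups, on the other. The files do not say whether the counting used strand or how reads shared by similar genes were assigned, so part of the reads of adjacent or similar genes cannot be told apart.

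**Figure D3:**
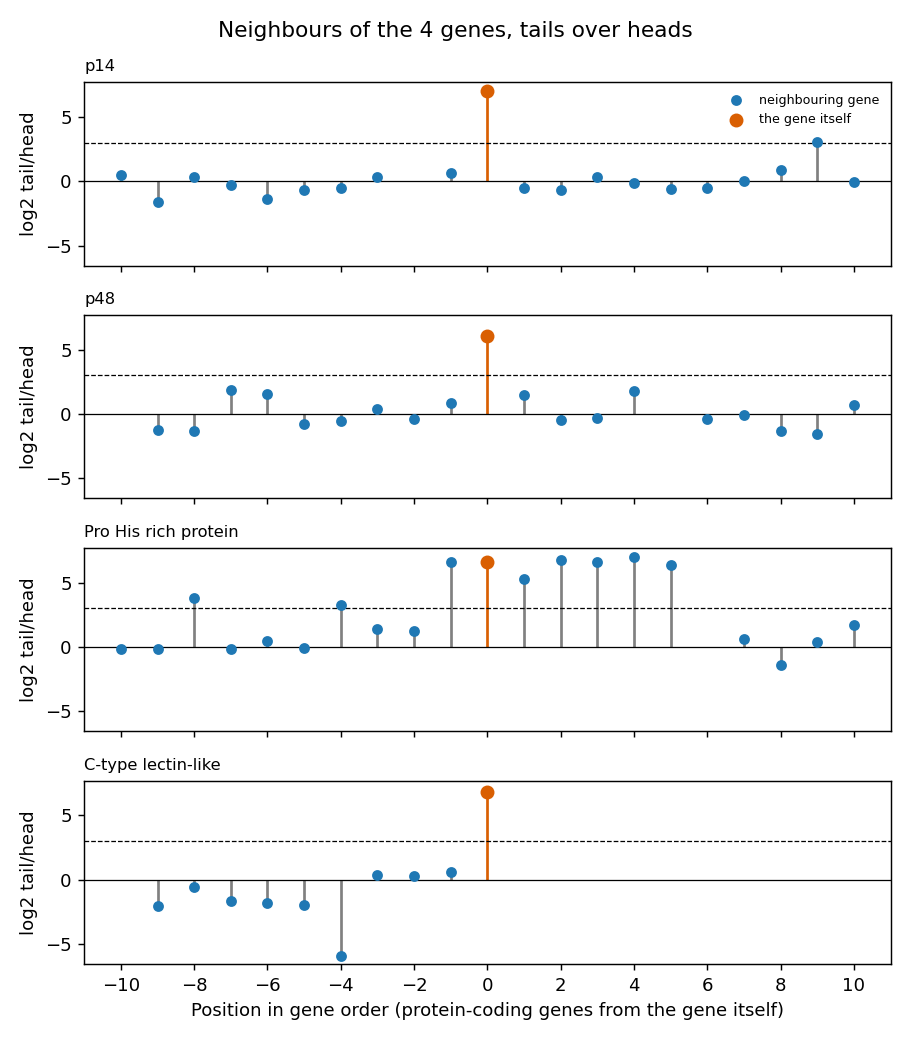
Log2 fold change of tails over heads for each gene (orange) and its protein-coding neighbours (blue) in gene order, up to 10 on each side; the dashed line marks a log2 fold change of 3. The Pro His rich protein gene stands in a block of genes near its own fold. No gene within 5 positions of p14, p48 or the C-type lectin-like gene reaches the dashed line.

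p14, p48 and the C-type lectin-like gene had no such surroundings. None of the 23 genes with reads within 5 positions of these 3 genes had a log2 fold change of at least 3. Among all genes with reads 3.09% had one, so this count is near that share. The values of the 23 genes ran from −5.90 to 1.78. The genes beside p14 included Smp_131100 (0.67), annotated as a membrane protein of the endoplasmic reticulum, and Smp_194900 (−0.51), an intraflagellar transport protein. p48 lay between a proteasome subunit, Smp_207080 (0.89), and a subunit of a translation initiation factor, Smp_014620 (1.48). Genes annotated with saposin domains lay within 5 positions of both precursors: Smp_194910 and Smp_016490 near p14, with log2 fold changes of −0.67 and −0.16, and Smp_014570 and Smp_130100 near p48, with −0.52 and 0.37. The C-type lectin-like gene was the last protein-coding gene of its assembled sequence and had neighbours on 1 side only, among them the tetraspanin genes Smp_140130 (−5.90) and Smp_140140 (−1.98). Smp_140130 had 5.56, 2.84 and 0 normalized counts in the 0.72, 0.35 and 0.32 tail libraries, against 167, 167 and 168 in the 2.55, 2.35 and 2.08 head libraries. Within 10 positions, 1 of 46 genes near these 3 genes passed, which is also near the share of all genes. It was Smp_016540 near p14 (3.07), with a mean of 53.8 in tails and 6.42 in heads. RefSeq lists 6 locus tags under the p14 gene, all numbered forms of Smp_131110, and the deposited table has 1 row for it.

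How the head reads of the 4 genes were spread over the 3 head libraries could be narrowed down for 1 of them. Since the reads behind each mean must be whole, a mean admits few combinations of library reads, and below a head mean of 200 all 3407 genes admitted exactly 1. The head mean of the C-type lectin-like gene allowed 2. In the first it had 8.23, 208 and 591 normalized counts in the 2.55, 2.35 and 2.08 head libraries, and in the second it had 486, 261 and 60.5. In either set the highest head library was at least 8.03 times the lowest, so the head level of this transcript was far from even over the libraries. The Pro His rich protein gene allowed 9 sets and p14 allowed 13, with the highest library anywhere from 1.73 to 54.9 and from 1.78 to 54.3 times the lowest. p48 was too abundant to solve, as were all 4 genes in tails.

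Other genes of like fold were uneven over the head libraries in a shared order. Of 15 genes with a log2 fold change of at least 6, a head mean of at least 10 and solved head reads, 13 (86.7%) were lowest in the 2.55 library and highest in the 2.08 library, against 19.8% of the 2359 genes of any fold at that level. The share of a gene's normalized head counts in the 2.55, 2.35 and 2.08 libraries had medians of 4.90%, 31.4% and 64.6% over the 15 genes. The first set of the C-type lectin-like gene, with 1.02%, 25.7% and 73.2%, lay within the range of the 15 genes in all 3 libraries. The second, with 60.2%, 32.3% and 7.49%, lay outside it in the first and the last. Likewise 1 of the 9 sets of the Pro His rich protein gene lay within that range, with 25.5, 537 and 1400.3 normalized counts, and 1 of the 13 sets of p14, with 69.4, 783 and 1629. This does not show which set was sequenced, since these sets were picked for their likeness.

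**Figure D4:**
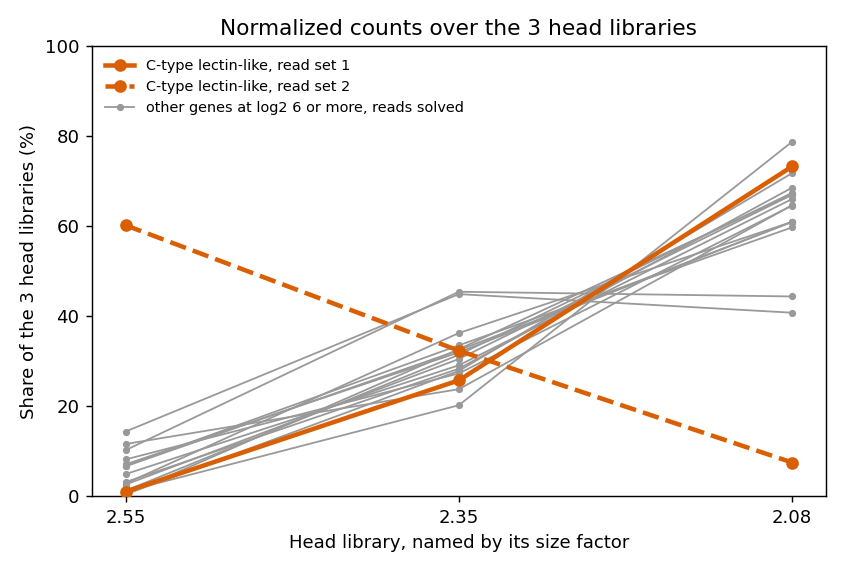
Share of a gene's normalized head counts in each head library (in %, libraries named by size factor) for both possible read sets of the C-type lectin-like gene (orange, solid and dashed) and for 15 other genes with a log2 fold change of at least 6 (grey). Grey lines are lowest in the 2.55 library, as is the solid orange line, while the dashed orange line is highest there.

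With a single head library left out, the log2 fold change of the C-type lectin-like gene ran from 6.27 to 8.16 over both sets, with 8.16 without the 2.08 library in the first set and 7.58 without the 2.55 library in the second. Over all sets it ran from 6.47 to 9.52 for p14, the highest without the 2.55 library, and from 6.02 to 8.12 for the Pro His rich protein gene, the highest without the 2.35 library. These extremes come from sets outside the range of the 15 genes above. In the 1 set of each gene within that range, the highest was 7.99 for p14 and 7.80 for the Pro His rich protein gene, both without the 2.08 library. Which set was sequenced is not known. p48, whose head reads were not solved, has no such range, and no tail library could be left out for any of the 4 genes.

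Over the whole table, markers of anterior organs were carried by heads. The 6 genes of the oesophageal gland all had a log2 fold change of −3 or below, as did 2.14% of all genes, and summed to 789.6 in tails and 112567 in heads. The 3 of the ootype and Mehlis' gland summed to 114 in tails and 13148 in heads. The study took the markers of these organs from its head-enriched transcripts, at a log2 fold change of −3 or below in these libraries. Their direction was thus fixed by that choice. The same holds for the vitelline markers below, which came from its tail-enriched transcripts. The only ovary gene used, Smp_159920, which the study listed as specific to the ovary, had 43.3 in tails and 988.5 in heads. The cuts lay in front of and behind the ovary, and the source of the head reads of this gene was not tested. The 5 markers of the vitelline lineage summed to 180199 in tails and 1863 in heads, with none at 0, and most of both sums was tes1 (145934 and 1508). Their log2 fold changes were 7.02 for Smp_000400, 6.82 for tyrosinase 1 and 6.60 for tes1. Those of nanos-1 (4.15) and crybg-1 (3.91) were lower. Gene lists of other tissues were mixed, although the study took gut and tegument as evenly spread along the worm. The 12 cathepsin B and L genes of the gut summed to 165244 in tails and 249912 in heads, with a median log2 fold change of −0.46 and 2 higher in tails. The 14 genes annotated as myosin heavy chain, paramyosin, troponin or tropomyosin, leaving out 1 non-muscle and 1 cellular myosin, summed to 26007 in tails and 96799 in heads, with a median of −1.86 and 4 higher in tails. The 16 genes annotated as tegument had a median of −0.44, with 6 higher in tails. Whether tissue content or RNA per cell differed was not tested. The part of these differences in the folds of the 4 genes was not tested.

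The name of the C-type lectin-like gene comes from the study's list of cloned genes. In the deposited annotation, 1 gene with reads carried the word lectin, Smp_199390, and it had a mean of 104 in tails and 77.7 in heads, a log2 fold change of 0.43. No other gene was annotated as Pro His rich. Of the 26 cloned genes described as specific to the vitellaria, which include the Pro His rich protein gene and the C-type lectin-like gene, all had a log2 fold change of at least 3 and 14 one of at least 6, with a median of 6.14. Among all genes with reads, the shares were 3.09% and 0.462%. The list of cloned genes was chosen by the study from these libraries and is no independent evidence of its direction.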

How the data were processed

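RNA of 3 tail and 3 head samples was sequenced from stranded libraries. The authors aligned them by STAR 2.5.0b against WormBase ParaSite gene models; no source used here names their counting program. The deposited signal values are mean normalized counts, for which the authors divided reads per gene by DESeq (1.22) size factors and averaged over a group or over all 6 libraries. The deposited ratio (tail over head, also as its log2) and the authors' unadjusted and adjusted p-value columns hold their own comparison and were not used. The table has 0 columns of single libraries.

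Log2 fold changes, tail over head, were computed from the group means. Genes at 0 in 1 group were set to the mean that 3 reads over that group stand for, 0.43 in heads and 2.16 in tails. Size factors were found from the smallest steps between low means and refined by least squares, and whole reads of single libraries were solved below a head mean of 200 (3407 of 3407 genes with 1 solution) or a tail mean of 1000 (6432 of 6441); 9 had none. The solving was tested on simulated data. Estimated depth was 5.25 to 11.8 M reads per library in tails and 25.4 to 31.1 M in heads. Gene order came from RefSeq (ASM23792v2). Only protein-coding genes were kept, and these were taken as adjacent within 1 assembled sequence, whose ends were read from the order of start positions. No coordinates are given because the build of the files is not named.

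The members and lists were chosen with earlier results of these data known. Besides the 4 members, genes were named as the 3 most like each member, as list members, as neighbours past a log2 fold change of 3 in size, or, after their values were seen, as neighbours beside a member, near the ends of a run, just below the level of a member, or by annotation as redox enzymes and ferritins. Alternatives were scaling, pseudocount, a level filter, leaving out libraries and the number of neighbours. Normalized counts per kb of coding length were not computed, as no lengths were used here. Analyses used Python 3.11.15, numpy 2.4.6, pandas 2.3.3 and scipy 1.17.1.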

Additional observations from a re-analysis of the deposited data

How the results depend on the processing

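Scaled to equal group totals, which shifts every log2 fold change down by 0.43, p14 had a log2 fold change of 6.60, p48 of 5.66, the Pro His rich protein gene of 6.15 and the C-type lectin-like gene of 6.41. Setting to 0 the median of the 7196 genes whose overall mean reached 100, a shift of 0.14, gave 6.89, 5.95, 6.45 and 6.70. Pseudocounts of 1 and 10 moved them by less than the counting error. Leaving out 1 head library gave 6.27 to 8.16 for the C-type lectin-like gene over its 2 possible read sets, 6.47 to 9.52 for p14 over 13 sets and 6.02 to 8.12 for the Pro His rich protein gene over 9 sets. For p48, and for the tail libraries of all 4 genes, no library could be left out because their reads were not solved. The 307 genes past a log2 fold change of 3 in favour of tails became 139 where the overall mean had to reach 10, 109 with a pseudocount of 10 and 263 at equal group totals. With 10 neighbours on each side, 9 of 65 neighbours with reads passed, against 7 of 33 with 5 and 3.09% of all genes with reads. With 5, 6 of 32 passed under that filter (1.58% of all genes) and 6 of 33 with that pseudocount (1.1%), both chosen after seeing the data. No paired analysis was possible because the deposited columns carry no replicate numbers and no test was made. Depth limits low genes such as Smp_122320 (6.24 in tails and 0.665 in heads) and not the 4 genes described.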
